A study of Homo sapiens with 6 samples.

Results

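Glycolysis and hypoxia genes were followed as a set of 41 genes in HCC38, an established human line of breast ductal carcinoma, which its labels call triple negative and basal-like. Members were the rows of the count table whose gene symbol is one of these 41, out of 26485 genes in all. Of them, 40 were found by their printed symbol, and PGK1, whose symbol a spreadsheet had turned into a sum of money, was found by its Entrez identifier. Poly(A) RNA had been sequenced in 6 libraries of 1 cell line grown in RPMI with serum. The mock library had transfection reagent and no siRNA by its own label, although the design text describes it as a control without transfection. Both non-targeting libraries, SCR#2 and SCR#3, had 1 control siRNA each. The 3 silenced libraries had 1 siRNA each against CIP2A, an inhibitor of the phosphatase PP2A, and are called siCIP2A#1, siCIP2A#2 and siCIP2A#3. Every siRNA thus had 1 library, and no label gives a time after transfection. Separate cultures are not mentioned either, and p-values here speak only of the spread between these libraries, which may be technical.

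Glycolysis splits glucose into pyruvate in the cytosol. Tumour cells often send much of that pyruvate to lactate and export it, even where oxygen is present. HIF1A and EPAS1 are the oxygen-labile subunits of the hypoxia-inducible factors. With oxygen, prolyl hydroxylases such as EGLN1 and EGLN3 mark them for destruction by the VHL ubiquitin ligase. Without it they pair with ARNT and bind hypoxia response elements, whose core reads ACGTG or GCGTG, near genes for glucose uptake, most glycolytic steps, lactate export and blood vessel growth. HIF1A is controlled mainly through its protein, so the level of its mRNA is a poor measure of its activity.

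Because many members are known HIF targets, their promoters were searched for that core. RefSeq promoter windows on GRCh38.p14, of 250 bases before a listed start site, were matched by symbol for 35 members and not for 6 (NDRG1, VEGFA, BNIP3L, SLC2A3, SLC16A1 and HILPDA). The letters ACGTG or GCGTG, on either strand (CACGT or CACGC on the other), stood in 37 of 63 member windows, or 58.7%. The share was 55.1% over windows of the same length at genes tested here and 43.2% over all windows. Among genes with 1 listed start site, 16 of 23 members (69.6%) and 59.6% of tested genes held it. The core is thus common in promoters of any kind, and a match is a description of letters, not a bound site. Counted by gene, 28 of 35 members (80%) and 65.5% of genes tested held it in at least 1 window. The windows of 4 members with 1 listed start that were higher in the mock than with non-targeting siRNAs at a small p are printed here because their matches differ in number and place. Each runs 5′ to 3′ toward the start site on the gene's own strand, with the matches in capitals. PGK1 is at chrX:78103998-78104247 on the plus strand, BNIP3 at chr10:131981924-131982173 on the minus strand, ENO1 at chr1:8878687-8878936 on the minus strand and PFKL at chr21:44299803-44300052 on the plus strand.
PGK1: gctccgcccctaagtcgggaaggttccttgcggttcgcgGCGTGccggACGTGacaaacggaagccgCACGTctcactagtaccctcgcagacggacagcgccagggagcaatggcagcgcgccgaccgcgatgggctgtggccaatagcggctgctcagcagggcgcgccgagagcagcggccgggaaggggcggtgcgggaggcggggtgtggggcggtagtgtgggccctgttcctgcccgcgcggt
BNIP3: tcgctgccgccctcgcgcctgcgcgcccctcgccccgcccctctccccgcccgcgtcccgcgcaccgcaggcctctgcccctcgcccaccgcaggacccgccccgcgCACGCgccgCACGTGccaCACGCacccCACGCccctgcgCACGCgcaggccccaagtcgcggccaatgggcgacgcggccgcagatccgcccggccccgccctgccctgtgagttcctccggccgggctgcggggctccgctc
ENO1: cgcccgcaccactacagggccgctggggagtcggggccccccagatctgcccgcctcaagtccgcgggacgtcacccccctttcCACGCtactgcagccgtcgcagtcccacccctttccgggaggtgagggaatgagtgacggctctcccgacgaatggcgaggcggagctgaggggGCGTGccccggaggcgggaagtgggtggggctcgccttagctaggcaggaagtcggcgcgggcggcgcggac
PFKL: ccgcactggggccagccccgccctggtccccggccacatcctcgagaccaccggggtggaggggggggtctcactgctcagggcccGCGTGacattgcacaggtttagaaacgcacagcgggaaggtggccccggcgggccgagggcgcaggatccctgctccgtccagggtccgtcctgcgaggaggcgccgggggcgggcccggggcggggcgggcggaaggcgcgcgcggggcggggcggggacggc
PGK1 held 3 matches, 183 to 211 bases before its start. BNIP3 held 6, of which a pair overlap on opposite strands as CACGTG, between 104 and 143 bases before its start. ENO1 held 2 and PFKL held 1. The windows of PFKFB4, with 1 match, and PGAM1, with 0, belong to members that were also higher in the mock, and are not printed because they lie inside the annotated extent of their genes.

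The libraries had total counts of 13995187 to 18161451. Levels are given as counts per 1000000 (CPM), scaled with edgeR's TMM factors. The floor, 3 counts, lay at 0.162 to 0.218 CPM and covers counting error only. CIP2A stood at 98.8 to 103 CPM in the 3 controls and at 16.3, 45.8 and 19.3 CPM with siCIP2A#1, siCIP2A#2 and siCIP2A#3, so siCIP2A#2 left the most target. Each siRNA fitted on its own lowered it (log2 differences -2.62, -1.13 and -2.38, edgeR adjusted p = 2.41e-04, 0.0165 and 4.68e-04). In the group tests used below CIP2A itself was not called, at -1.90 against all controls (edgeR adjusted p = 0.708, range over the alternatives 1.20e-05 to 1.00) and -1.91 against non-targeting siRNA (edgeR adjusted p = 0.874, range 5.52e-04 to 1.00). Of 12 genes listed as markers of basal-like breast epithelium, KRT6B and KRT14 had 0 counts in every library, and KRT5 and KRT17 were under the floor. KRT19 ran from 0.177 to 0.710 CPM, EPCAM from 0.436 to 0.746 CPM and CDH1 from 0.145 to 1.22 CPM. The other 5, VIM, KRT8, KRT18, EGFR and LAMB3, exceeded 1 CPM in every library, but the list is not confined to basal cytokeratins. The cytokeratins that define basal cells were therefore absent or near 0 in cells labelled basal-like. The leukocyte marker PTPRC and the endothelial marker CDH5 were at 0, but not all listed markers of other cell types were. The endothelial marker PECAM1 ran from 3.00 to 6.22 CPM and VWF from 0.452 to 1.08 CPM. Of the fibroblast markers, COL1A1 ran from 4.61 CPM to 14.4 CPM (siCIP2A#1) and PDGFRB from 0.707 to 2.38 CPM. In bulk RNA, fewer cells of a type and less RNA per cell cannot be told apart.

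The members' levels spanned a wide range. Genes were compared per kilobase of exon. The length joins all listed exons of a gene and can exceed that of the mRNA expressed, so close ranks depend on the annotation, which the SD does not cover. GAPDH led in the controls at 3132 ± 240 CPM per kilobase (SD, n = 3 here and for all control means). ENO1 followed at 1480 ± 217, then LDHB at 834 ± 15.1 and PKM at 799 ± 91.4, which did not differ beyond their spread. ALDOA stood at 460 ± 104 CPM per kilobase. TPI1 (246.5 ± 35.7), LDHA (202 ± 23.4), PGK1 (198 ± 30.9) and GPI (170 ± 32.1) followed. Each overlapped the next within 1 SD, but TPI1 was above GPI by more than their spread. At the steps with several isoforms, 1 form dominated at some and not at others. HK1, the housekeeping hexokinase, stood at 23.6 ± 0.199 CPM per kilobase against 8.05 ± 1.30 for HK2, the form induced in many tumours. ALDOC reached 0.417 ± 0.114, far below ALDOA, whereas PFKP (40.3 ± 5.6), PFKL (35.0 ± 9.75) and PFKM (31.3 ± 0.543) stood close to each other. HIF1A, at 60.5 ± 6.27 CPM per kilobase, was far above EPAS1 at 0.614 ± 0.0278.

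Of the 41 members, 39 had enough counts to be tested, and CA9 and EGLN3 did not. CA9, the membrane carbonic anhydrase often used as a mark of hypoxic tumour cells, had 15 counts in the mock, at 3 with SCR#2 and 8 with SCR#3, and at 8, 2 and 7 with siCIP2A#1, #2 and #3. Its level was 1.09 CPM in the mock and 0.129 to 0.543 CPM elsewhere. EGLN3 had 1, 3, 3, 5, 3 and 3 counts in the same order, at or near the floor in every library.

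The 39 tested members, chosen with earlier results of these data known, were ranked by the library where each was highest and lowest. The mock was the highest of the 6 libraries for 22 members (56.4%), where it was the highest for 17.6% of the 13562 genes tested. siCIP2A#2 was the lowest for 18 members (46.2%), against 21.4% of all genes tested. Both held for 13 members, GPI, PFKP, PFKFB4, TPI1, PGK1, ENO2, LDHA, PDK1, BNIP3, ANKRD37, EGLN1, P4HA1 and KDM3A, and for 2.85% of all genes tested. The mock was the lowest library for 1 member, HIF1A, against 14.2% of all genes. siCIP2A#1 was the highest for 8 members (HK1, SLC2A3, SLC16A1, ADM, NDRG1, EPAS1, ARNT and ANGPTL4), or 20.5% against a background of 18.1%, which is near that background. The mock was highest for 17 of 24 members of transport, glycolysis and pyruvate fate and for 5 of 15 members of the HIF system and its other targets. These ranks describe 1 library each and carry no test, and the choice of members may have shaped them. Among 70 other tested genes of the same pathways, the mock was highest for 18.6% and siCIP2A#2 lowest for 27.1%. The counts of 22 and 18 were the same with CPM scaled to library totals or with RLE factors.

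**Figure D1:**
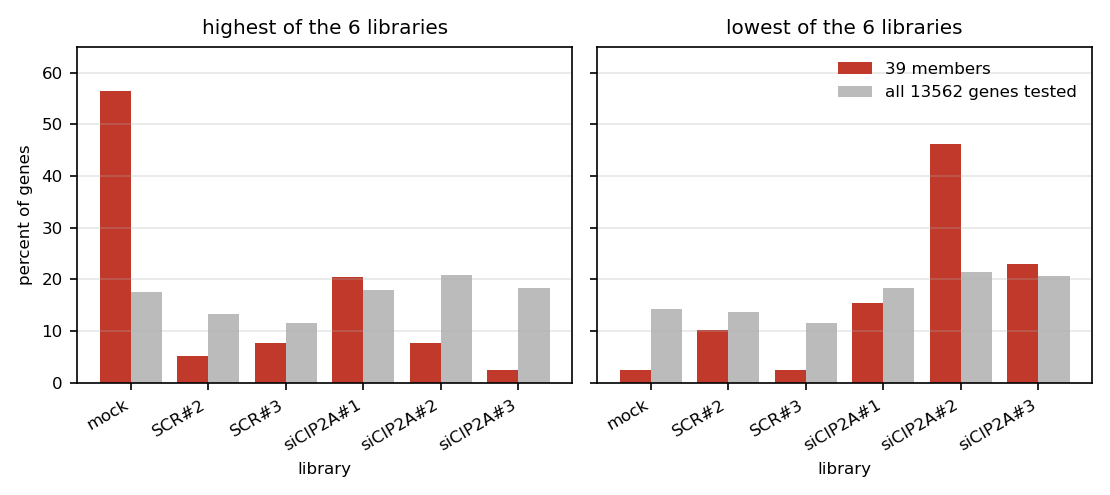
Percent of genes (y axis) for which each library (x axis) was the highest (left) or the lowest (right) of the 6, for the 39 tested members (red bars) and all 13562 genes tested (grey bars), from TMM-scaled CPM. The mock stands out on the left at 56.4% of members and siCIP2A#2 on the right at 46.2%.

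**Figure D2:**
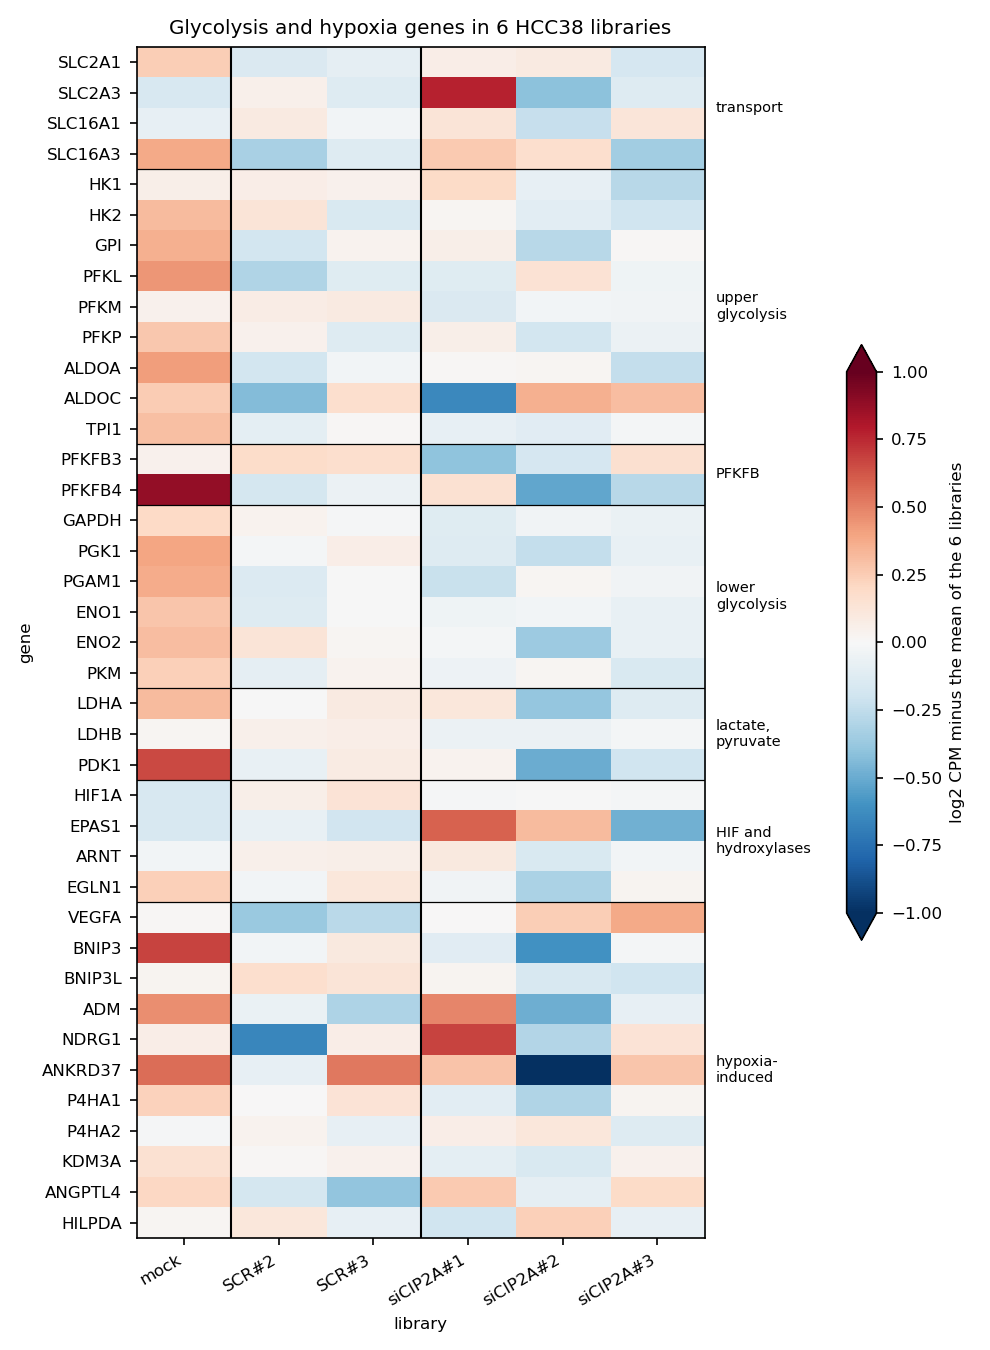
Log2 CPM of each tested member (rows, by role) in each library (columns) minus its mean over the 6 libraries, with colours saturating at 1 in either direction; only ANKRD37 with siCIP2A#2 goes past that range. The mock column is mostly red through upper and lower glycolysis, and the siCIP2A#2 column is blue at PFKFB4, PDK1, BNIP3, ADM and, darkest of all, ANKRD37. Among the blue cells, NDRG1 with SCR#2 and ALDOC with siCIP2A#1 are the next darkest.

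Non-targeting siRNA against the mock sets control libraries against each other. The spread behind its SE and p comes from the fit with 3 levels, in which the mock is alone in its level and adds nothing to that spread. It is set by SCR#2 and SCR#3 and by the CIP2A libraries, each with a different siRNA. The median log2 difference of the 39 members was -0.31, with 29 below 0, whereas 49.6% of all genes tested lay below 0. At an unadjusted p under 0.05 were 14 lower members, where 5.18% of all genes were lower at that p, and 1 higher member, HIF1A. None passed the quasi-likelihood test of edgeR after Benjamini-Hochberg adjustment, which called 0% of all genes here. At an unadjusted p under 0.05 edgeR had 856 genes, and DESeq2 called 3 genes, none of them members. The mock is 1 library assumed to vary like the others, and without SCR#2 the members' median was -0.21. A difference from the mock may be one of that single library, and this was not tested.

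The CIP2A siRNAs against the non-targeting siRNAs gave a members' median of -0.03, with 25 of 39 below 0 and 50.4% of all genes below 0. Left-out libraries put that median between -0.08 (without siCIP2A#1) and -0.01 (without siCIP2A#2). Against all 3 controls, mock included, the median was -0.13, with 30 of 39 below 0 where 50.3% of all genes were, and without the mock it was -0.03. edgeR called 0% of genes, and no member, in either comparison. The mock enters the second of these values and the non-targeting libraries enter both, so they are not independent. At an unadjusted p under 0.05 there were 369 genes against all controls and 755 against the non-targeting siRNAs. DESeq2 called 3 genes in each, none of them members. PGK1, BNIP3, ENO2, BNIP3L, PDK1 and P4HA1 were lower and VEGFA higher at that unadjusted p against all controls, where 1.23% of all genes were lower at it. Against the non-targeting siRNAs 1 member, BNIP3L, was lower and 2, VEGFA and ANGPTL4, were higher at that p.

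**Figure D3:**
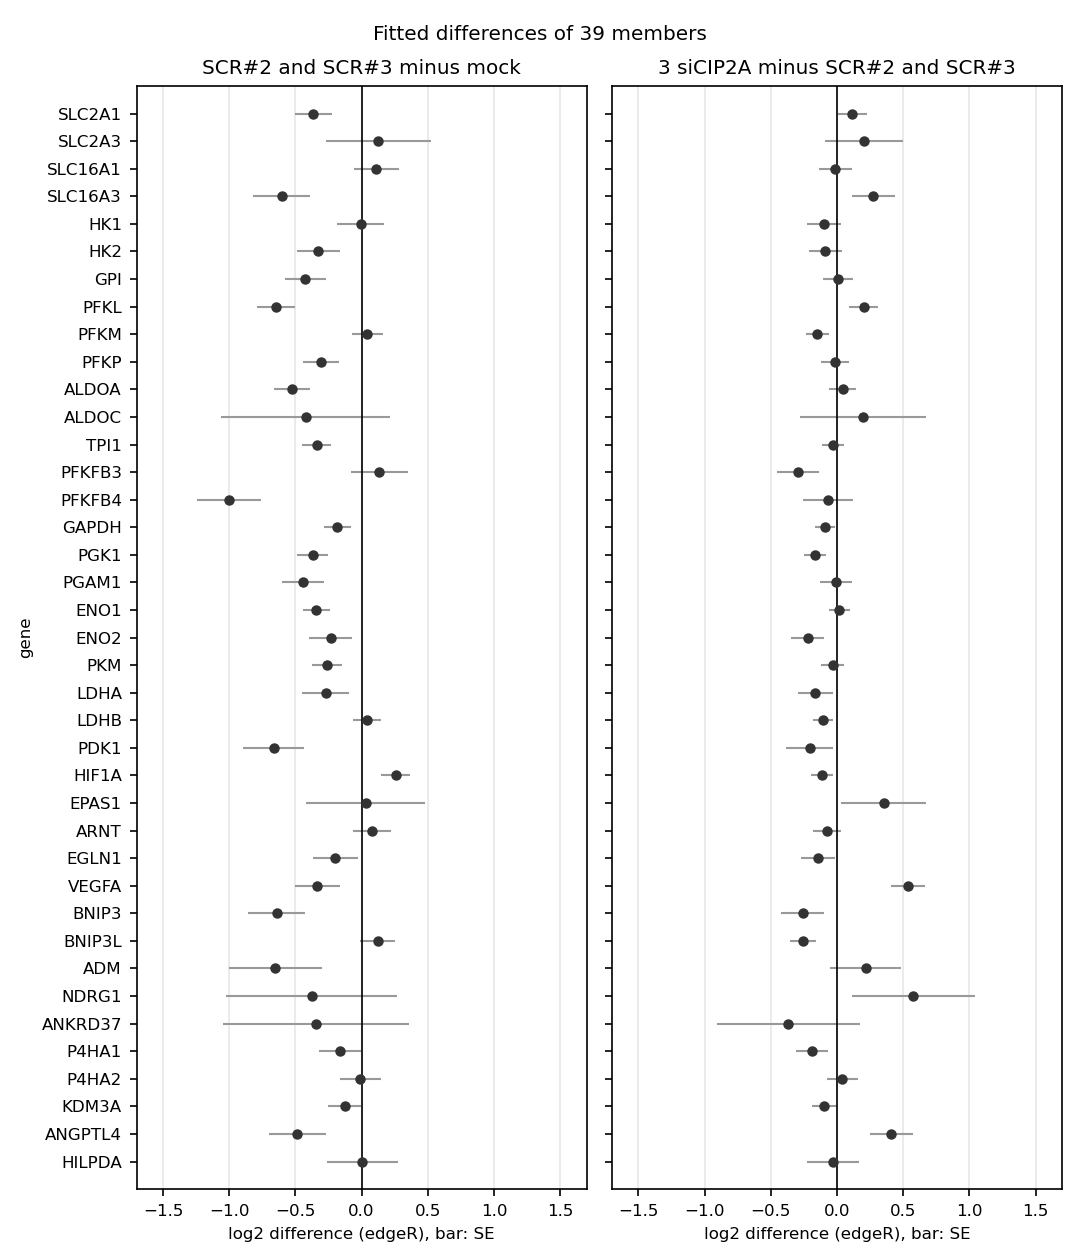
Fitted log2 differences of the 39 tested members (points, with bars of 1 SE, edgeR fit with 3 levels) for the non-targeting siRNAs minus the mock (left) and the CIP2A siRNAs minus the non-targeting siRNAs (right). Most glycolysis genes lie left of 0 in the left panel, as far as -0.998 for PFKFB4, and close to 0 in the right panel, where VEGFA stands at 0.54.

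The groups of CIP2A and control libraries did not overlap for 6 members, all lower with the siRNAs: PFKM, GAPDH, PGK1, ENO2, LDHB and BNIP3L. The background is 4.39% of genes with every silenced library below every control and 3.25% with every one above, and 0 members were above. Over all genes these were 595 below and 441 above, so that 42.6% of them were above. Scaled to library totals they were 437 and 584, or 57.2% above, and the members were then 5 below, without BNIP3L, and 1 above, VEGFA. With RLE factors they were 540 and 474, or 46.7% above, with the same 5 members below, again without BNIP3L, and 0 above. Against SCR#2 and SCR#3 alone, 8 members were below (PFKM, PFKFB3, GAPDH, PGK1, ENO2, LDHB, BNIP3L and HIF1A; background 11.5%) and 2 above (VEGFA and ANGPTL4; background 12.7%).

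Glucose enters the cell through the transporters SLC2A1 and SLC2A3, and lactate crosses the membrane through SLC16A1 and SLC16A3. SLC2A3, the high-affinity glucose transporter GLUT3 on chromosome 12 from 7919230 to 7936187 (GRCh38.p14), stood at 114 CPM in the mock, 132 with SCR#2 and 116 with SCR#3. Its level was 217 CPM with siCIP2A#1, 95.7 with siCIP2A#2 and 116 with siCIP2A#3. The siCIP2A#1 library lay far above all others, and siCIP2A#2 lay below every control. With siCIP2A#1, SLC2A3 rose by a log2 difference of 0.85 (SE 0.11, edgeR adjusted p = 0.0451), and it was the only member called with any single siRNA. With RLE factors it just missed the call (edgeR adjusted p = 0.05002, range over the alternatives 2.81e-09 to 0.05002). With siCIP2A#2 it stood at -0.33 (SE 0.12, edgeR adjusted p = 0.370) and with siCIP2A#3 at -0.06 (SE 0.12, edgeR adjusted p = 0.934). Set directly against siCIP2A#3, siCIP2A#1 had more SLC2A3 by 0.90 (SE 0.14, edgeR adjusted p = 0.0430). Against siCIP2A#2 the difference was 1.18 (SE 0.14, edgeR adjusted p = 0.0522) and did not pass. These tests set 1 library against 1 library with the spread of the controls, were chosen after the values were seen, and compare those libraries only.

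SLC2A1, the basal glucose transporter GLUT1, stood at 111 CPM in the mock, at 84.4 with SCR#2 and 87.5 with SCR#3, and at 97.6, 99.0 and 83.0 with siCIP2A#1, #2 and #3. The mock was above the other 5, and the siRNA libraries of both kinds overlapped. Its log2 difference was -0.37 (SE 0.14) for non-targeting siRNA against mock and 0.12 (SE 0.11) for CIP2A against non-targeting siRNA. The lactate exporter gene SLC16A3 ran from 166 CPM (siCIP2A#3) to 275 CPM (mock), and SLC16A1 from 90.4 CPM (siCIP2A#2) to 116 CPM (siCIP2A#1), and neither passed with all 6 libraries in the fit.

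Upper glycolysis turns glucose into triose phosphates. HK2, which traps glucose as its phosphate, stood at 55.3 CPM in the mock, at 48.3 with SCR#2 and 39.8 with SCR#3, and at 44.8, 41.0 and 38.6 with siCIP2A#1, #2 and #3. Control and silenced libraries overlapped, with a control mean of 47.8 ± 7.75 CPM and a silenced mean of 41.5 ± 3.13 CPM (SD, n = 3 each). PFKL, the liver-type subunit of phosphofructokinase, stood at 136 CPM in the mock, at 81.7 with SCR#2 and 92.5 with SCR#3, and at 92.2, 111 and 97.4 with siCIP2A#1, #2 and #3. Every siRNA library was below the mock, and none of the 3 CIP2A siRNAs was as low as SCR#2. PFKL differed by -0.64 between non-targeting siRNA and mock (SE 0.14, edgeR adjusted p = 0.610). ALDOA, the main aldolase, stood at 1391 CPM in the mock, at 913 with SCR#2 and 1018 with SCR#3, and at 1047, 1054 and 881 with siCIP2A#1, #2 and #3. The mock again stood alone at the top, siCIP2A#3 was the lowest, and there was a difference of -0.53 for non-targeting siRNA against mock (SE 0.14, edgeR adjusted p = 0.610) but 0.04 (SE 0.10) for CIP2A against non-targeting siRNA. GPI, PFKP and TPI1 were also highest in the mock, with differences of -0.42 (SE 0.15), -0.31 (SE 0.14) and -0.34 (SE 0.11) for non-targeting siRNA against mock. PFKM differed by -0.15 (SE 0.09) between CIP2A and non-targeting siRNAs, and HK1 by -0.10 (SE 0.13). ALDOC lay between 0.487 and 1.10 CPM.

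The bifunctional enzymes PFKFB3 and PFKFB4 set the level of fructose 2,6-bisphosphate, the strongest activator of phosphofructokinase. PFKFB4, on chromosome 3 from 48517684 to 48563136, stood at 36.6 CPM in the mock, at 17.6 with SCR#2 and 19.1 with SCR#3, and at 22.1, 13.8 and 16.4 with siCIP2A#1, #2 and #3. The mock stood far above the 5 siRNA libraries, among which the CIP2A and non-targeting values overlapped. The difference between non-targeting siRNA and mock, -0.998 (SE 0.24, edgeR adjusted p = 0.610), was the largest of any member in that comparison. It lay between -1.06 and -0.94 when libraries were left out. PFKFB3 stood at 31.6 CPM in the mock, at 34.9 with SCR#2 and 34.5 with SCR#3, and at 23.2, 27.3 and 34.3 with siCIP2A#1, #2 and #3. Unlike for PFKFB4, the mock lay within the other libraries, and siCIP2A#1 was the lowest (-0.54 against the controls, SE 0.14, edgeR adjusted p = 0.217).

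Lower glycolysis carries the triose phosphates to pyruvate and yields the net ATP of the pathway. All 6 members, GAPDH, PGK1, PGAM1, ENO1, ENO2 and PKM, were highest in the mock. PGK1, which makes ATP from 1,3-bisphosphoglycerate and whose promoter is printed above, stood at 1160 CPM in the mock, at 870.3 with SCR#2 and 924 with SCR#3, and at 809, 749 and 840.5 with siCIP2A#1, #2 and #3. All silenced libraries lay below all controls, with means of 799.6 ± 46.6 and 985 ± 154 CPM (SD, n = 3 each). Its difference against all controls was -0.30 (SE 0.11, edgeR adjusted p = 0.999), and -0.17 without the mock. ENO2, the neuronal enolase, stood at 74.4 CPM in the mock, at 65.8 with SCR#2 and 60.8 with SCR#3, and at 59.1, 46.6 and 57.1 with siCIP2A#1, #2 and #3. The silenced libraries again lay below the controls, siCIP2A#1 only just, and the difference was -0.30 (SE 0.12, edgeR adjusted p = 0.999). Exact permutation tests (two-sided, 6 libraries) gave p = 0.10 for PGK1 and ENO2, the smallest that 3 against 3 can give and what groups without overlap reach, and p = 0.20 for VEGFA and BNIP3.

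ENO1, the main enolase, stood at 4140 CPM in the mock, at 3129 with SCR#2 and 3405 with SCR#3, and at 3322, 3355 and 3250 with siCIP2A#1, #2 and #3. Here the 3 CIP2A siRNAs lay inside the range of SCR#2 and SCR#3, and the mock stood alone. The differences were -0.34 (SE 0.10) for non-targeting siRNA against mock and 0.02 (SE 0.08) for CIP2A against non-targeting siRNA. GAPDH ran from 6051 CPM (siCIP2A#1) to 7569 CPM (mock), PKM from 2273 CPM (siCIP2A#3) to 2972 CPM (mock) and PGAM1 from 29.5 CPM (siCIP2A#1) to 44.6 CPM (mock). RefSeq lists 65 pseudogenes named after GAPDH and 13 after PGAM1, so their values are uncertain where reads were shared with near-identical copies.

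LDHA and LDHB are the muscle-type and heart-type subunits of lactate dehydrogenase, and PDK1 inhibits pyruvate dehydrogenase and so keeps pyruvate out of the mitochondrion. LDHA stood at 676 CPM in the mock, at 542 with SCR#2 and 579.5 with SCR#3, and at 589.7, 416 and 497 with siCIP2A#1, #2 and #3. siCIP2A#1 lay among the controls and siCIP2A#2 below every other library. LDHA differed by -0.53 with siCIP2A#2 against the controls (SE 0.13, edgeR adjusted p = 0.246). PDK1 stood at 21.8 CPM in the mock, at 13.0 with SCR#2 and 14.5 with SCR#3, and at 14.1, 9.68 and 11.9 with siCIP2A#1, #2 and #3. Its mock value was the highest by a wide gap, and siCIP2A#2 was the lowest. The differences were -0.67 (SE 0.23) for non-targeting siRNA against mock, -0.46 (SE 0.20) for CIP2A siRNA against all controls, and -0.21 for the latter without the mock. LDHB kept to a narrow range of 1227 to 1345 CPM, with the mock (1297 CPM) between the non-targeting and the CIP2A libraries.

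**Figure D4:**
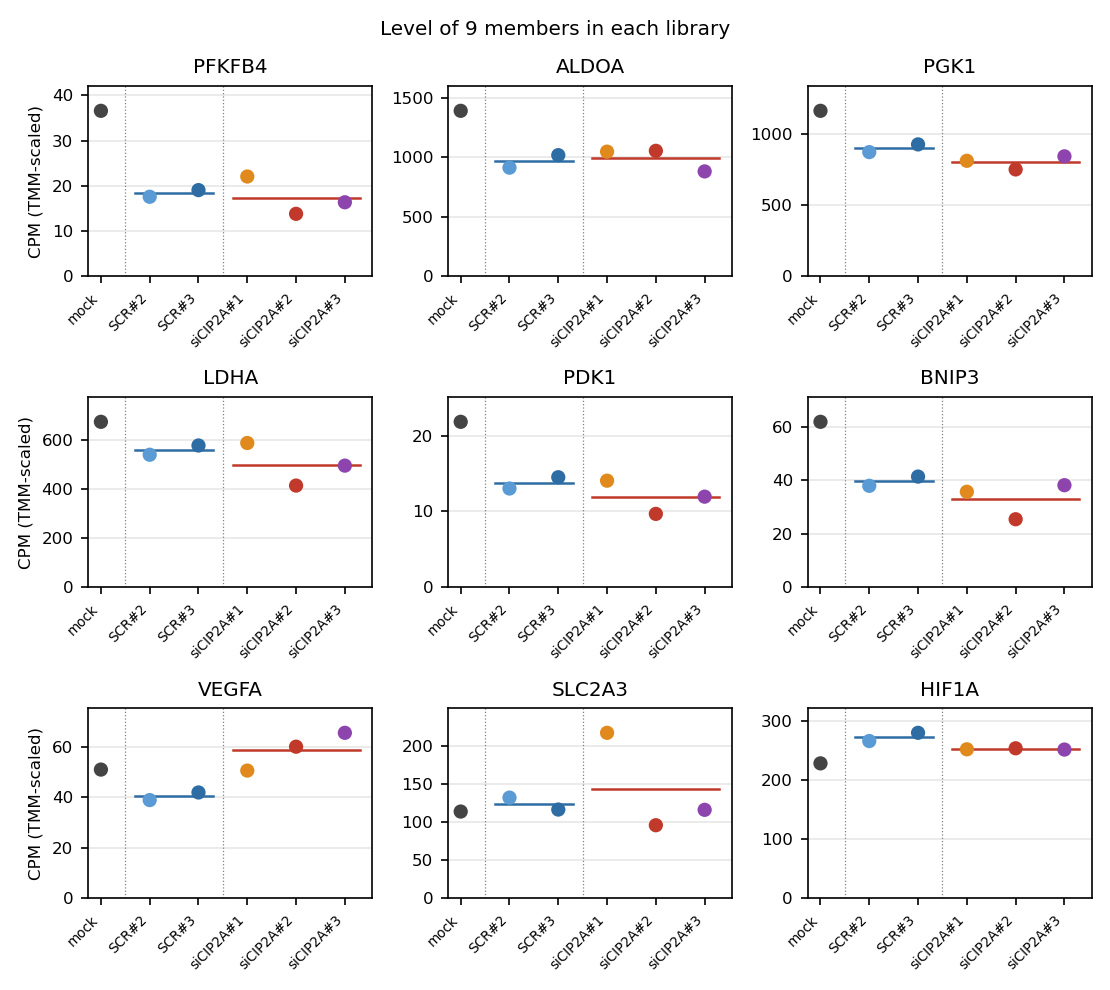
TMM-scaled CPM (y axes, from 0) of 9 members in each library (x axes), 1 point per library, with horizontal lines at the mean of SCR#2 and SCR#3 (blue) and of the 3 CIP2A siRNAs (red). The mock stands above the rest for PFKFB4, ALDOA, PGK1, LDHA, PDK1 and BNIP3, VEGFA is higher with the CIP2A than with the non-targeting siRNAs, SLC2A3 is high with siCIP2A#1 alone, and HIF1A is lowest in the mock.

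None of the 3 HIF subunit genes was highest in the mock. HIF1A stood at 228 CPM in the mock, at 265.5 with SCR#2 and 279 with SCR#3, and at 252, 253 and 251 with siCIP2A#1, #2 and #3. It was lowest in the mock, the reverse of 22 other members, and the 3 silenced libraries lay close together between the mock and the non-targeting siRNAs. Its differences were 0.26 (SE 0.11, edgeR adjusted p = 0.780) for non-targeting siRNA against mock and -0.11 (SE 0.08, edgeR adjusted p = 0.901) for CIP2A against non-targeting siRNA. EPAS1, which encodes HIF-2 alpha, stood at 3.13 CPM in the mock, at 3.33 with SCR#2 and 3.05 with SCR#3, and at 5.35, 4.39 and 2.47 with siCIP2A#1, #2 and #3. The CIP2A siRNAs lay on both sides of the tightly grouped controls, with 0.75 for siCIP2A#1 (SE 0.21, edgeR adjusted p = 0.253). ARNT, the stable partner, stood at 62.8 CPM in the mock, at 66.1 with SCR#2 and 66.5 with SCR#3, and at 68.6, 57.6 and 62.8 with siCIP2A#1, #2 and #3. Its groups overlapped. EGLN1, the main oxygen-sensing prolyl hydroxylase and itself a HIF target, stood at 55.4 CPM in the mock, at 46.0 with SCR#2 and 50.5 with SCR#3, and at 45.6, 37.6 and 47.8 with siCIP2A#1, #2 and #3. It was lowest with siCIP2A#2 (-0.43, SE 0.14, edgeR adjusted p = 0.347).

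Among hypoxia-induced genes outside glycolysis, VEGFA had the smallest p against all controls and was the only member higher there at an unadjusted p under 0.05. It encodes the main angiogenic growth factor and lies on chromosome 6 from 43770211 to 43786487. VEGFA stood at 51.1 CPM in the mock, at 38.97 with SCR#2 and 42.0 with SCR#3, and at 50.7, 60.1 and 65.7 with siCIP2A#1, #2 and #3. All 3 CIP2A siRNAs lay above both non-targeting siRNAs, and siCIP2A#1 lay level with the mock. The difference was 0.54 against non-targeting siRNA (SE 0.13, edgeR adjusted p = 0.874, range over the alternatives 0.0719 to 1.00) and 0.42 against all controls (SE 0.13, edgeR adjusted p = 0.999). It kept its sign under every alternative run, between 0.45 and 0.64 against non-targeting siRNA as libraries were left out. ANGPTL4, a secreted inhibitor of lipoprotein lipase, stood at 17.1 CPM in the mock, at 13.1 with SCR#2 and 11.3 with SCR#3, and at 17.8, 13.9 and 17.0 with siCIP2A#1, #2 and #3. It too was higher with each CIP2A siRNA than with either non-targeting siRNA (0.41, SE 0.16, edgeR adjusted p = 0.874), and the mock lay among the CIP2A values.

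BNIP3 and BNIP3L encode related mitophagy receptors. BNIP3 stood at 61.8 CPM in the mock, at 37.9 with SCR#2 and 41.4 with SCR#3, and at 35.7, 25.4 and 38.2 with siCIP2A#1, #2 and #3. The mock was the highest by a wide gap and siCIP2A#2 the lowest, while siCIP2A#1 and siCIP2A#3 lay near the non-targeting siRNAs. The differences were -0.64 (SE 0.21) for non-targeting siRNA against mock, -0.50 (SE 0.19) for CIP2A siRNA against all controls and -0.26 for the latter without the mock. With siCIP2A#2 alone it was -0.88 (SE 0.26, edgeR adjusted p = 0.314), and this passed without SCR#2 (edgeR adjusted p = 0.0278) or without SCR#3 (0.0126), in a range over the alternatives of 2.80e-05 to 0.859. RefSeq lists 46 pseudogenes named after BNIP3. BNIP3L stood at 111 CPM in the mock, at 123 with SCR#2 and 120 with SCR#3, and at 111, 97.9 and 95.3 with siCIP2A#1, #2 and #3. It lacked the high mock value of BNIP3 and differed by -0.25 between CIP2A and non-targeting siRNA (SE 0.10, edgeR adjusted p = 0.874).

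ADM, the vasodilator peptide adrenomedullin, stood at 11.3 CPM in the mock, at 7.83 with SCR#2 and 6.58 with SCR#3, and at 11.5, 5.81 and 7.71 with siCIP2A#1, #2 and #3. The mock and siCIP2A#1 were high and the other 4 low, so the groups overlapped. ANKRD37, a small ankyrin-repeat HIF target, stood at 1.53 CPM in the mock, at 0.935 with SCR#2 and 1.49 with SCR#3, and at 1.24, 0.258 and 1.24 with siCIP2A#1, #2 and #3. Only siCIP2A#2 left the range of the others, close to its floor of 0.194 CPM, with a difference of -2.30 (SE 0.62, edgeR adjusted p = 0.280). Of the collagen prolyl hydroxylases, P4HA1 ran from 47.6 CPM (siCIP2A#2) to 68.8 CPM (mock) and P4HA2 from 44.0 CPM (siCIP2A#3) to 52.3 CPM (siCIP2A#2). The histone demethylase gene KDM3A ran from 107 to 133 CPM, the lipid droplet gene HILPDA from 6.165 to 8.39 CPM and NDRG1 from 0.526 to 1.51 CPM. None of these members passed with all 6 libraries in the fit.

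Each siRNA was also set against the 3 controls, which the 3 comparisons share, with each single library assumed to vary like the controls. With siCIP2A#1 the members' median was -0.09 and 27 of 39 lay below 0, against 51.2% of all genes. edgeR called 0.118% of genes (16), SLC2A3 among them. With siCIP2A#2 the median was -0.18 and 30 lay below 0, against 50.6%. There edgeR called 0.0737% of genes (10) and no member, while 10 members were lower at an unadjusted p under 0.05, against 6.21% of all genes. These were LDHA, ENO2, ANKRD37, BNIP3, P4HA1, EGLN1, SLC2A3, PGK1, PDK1 and BNIP3L. With siCIP2A#3 the median was -0.12 and 33 lay below 0, against 52% of all genes, and edgeR called 0.00737% of genes (1), which was CIP2A. The lowest member there was PFKFB4 at -0.57. HK1 stood at -0.34 (SE 0.10, edgeR adjusted p = 0.497) and VEGFA at 0.58 (SE 0.15, edgeR adjusted p = 0.446). Between siRNAs, edgeR called 0.0147% of genes for siCIP2A#1 against siCIP2A#2, 0.509% for siCIP2A#1 against siCIP2A#3 and 0% for siCIP2A#2 against siCIP2A#3, and the single member call was that of SLC2A3.

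These counts depend on which controls set the spread. Without the mock, only SCR#2 and SCR#3 set it (1 residual degree of freedom). Calls of members there are not read as a result about the members, because edgeR called far more genes with each siRNA over the whole table. Without SCR#2 it called 102, 40 and 33 genes, with SLC2A3 for siCIP2A#1 and BNIP3 and LDHA for siCIP2A#2, and without SCR#3 it called 85, 50 and 32, with SLC2A3 and BNIP3 respectively.

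Other genes of the same pathways were listed separately: 94 symbols, of which 91 stood in the table and 70 were tested. Their medians lay closer to 0 for non-targeting siRNA against mock, a difference between lists that was not tested. Against non-targeting siRNA the CIP2A siRNAs gave a median of -0.04 (40 of 70 below 0), and non-targeting siRNA against mock gave -0.04 (39 of 70). The mock was highest for 13 of 70 (18.6%) and siCIP2A#2 lowest for 19 of 70 (27.1%), near the backgrounds given above. Of 70 genes 1 was called against controls, with siCIP2A#2, where edgeR called 0.0737% of all genes. Between siRNA libraries 1 was called, for siCIP2A#1 against siCIP2A#3, where edgeR called 0.509% of all genes. ERO1A, the ER oxidase and a HIF target, stood at 100.3 CPM in the mock, at 97.2 with SCR#2 and 104 with SCR#3, and at 96.9, 52.2 and 104 with siCIP2A#1, #2 and #3. With siCIP2A#2 it fell by 0.94 on the log2 scale (SE 0.11, edgeR adjusted p = 0.0332), and the other 5 libraries lay close together. BHLHE40, a hypoxia-induced transcriptional repressor, stood at 55.3 CPM in the mock, at 49.1 with SCR#2 and 53.5 with SCR#3, and at 82.8, 52.9 and 42.0 with siCIP2A#1, #2 and #3. It was called for the siCIP2A#1 library against the siCIP2A#3 library (0.98, SE 0.15, edgeR adjusted p = 0.0414) and not for siCIP2A#1 against the controls (0.66, SE 0.11, edgeR adjusted p = 0.0880). Against all controls the smallest p on the higher side belonged to the secreted glycoprotein gene STC2 (0.41, SE 0.16) and NDUFA4L2, a HIF target of the respiratory chain (1.00, SE 0.47, from 0.234 to 1.16 CPM). On the lower side they belonged to P4HA3 (-0.34, SE 0.18) and FAM162A (-0.24, SE 0.13). None of these 4 passed (edgeR adjusted p = 0.999 each).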

How the data were processed

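RNA was measured in 6 HCC38 libraries. Per the submitters' processing notes, the tools were STAR 2.5.4b, Subread 1.5.1 and bcl2fastq 2.17, on hg38. How multi-mapping reads and strand were treated, and with which annotation, is not given in the sources used here. The authors deposited raw, whole-number read counts per gene, 1 column per library, per the file headers.

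In the symbols, 51 had been turned into currency amounts, and the Entrez identifier of the row restored 50, PGK1 among them. KIAA1524 is called CIP2A. Genes were filtered with filterByExpr (minimum count 10) and scaled with TMM (factors 0.982 to 1.02). Tests used edgeR 4.0.16 (robust glmQLFit, glmQLFTest) in R 4.3.3 over all 13562 genes tested, with Benjamini-Hochberg adjusted p under 0.05. Silenced against all controls was fitted with 2 levels, non-targeting siRNA against mock and CIP2A against non-targeting siRNA with 3, and single siRNAs with 4. Levels are CPM scaled with TMM factors, per kilobase of GENCODE 29 exon where genes are compared. Gene positions and promoters came from RefSeq on GRCh38.p14. Steps were tested on simulated data. There, 1.5-fold changes were recovered for 56% of changed genes against all controls and 41% against non-targeting siRNA. The share was 10% for non-targeting siRNA against mock and 16% for siCIP2A#1 against the controls. For 2-fold changes the shares were 82%, 82%, 54% and 64% in the same order. False calls made up 1.5% to 10.1% of calls, most for siCIP2A#1. A gene that was not called may therefore still have changed.

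Values in every library are given for called members, the 4 with the smallest p in each group comparison, and HIF1A, EPAS1, ARNT, EGLN1, EGLN3, CA9, VEGFA, SLC2A1, SLC2A3, HK2, LDHA, PFKFB3, PFKFB4, PDK1, BNIP3, ADM and ANKRD37. Of other pathway genes, called ones, those between siRNAs included, and the 2 with the smallest p in each direction are named. Members, lists and rules were chosen with earlier results of these data known. Alternatives were RLE factors, DESeq2 1.42.0, no filter, a filter at 1 CPM in 3 libraries, a replicate block, and each library left out. Comparisons between siRNAs and other scalings of ranks were added after seeing the data.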

Additional observations from a re-analysis of the deposited data

Results flagged for a closer look

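SLC2A3 was the only member called when single CIP2A siRNA libraries were set against each other, a comparison chosen after the values were seen. Its log2 level was higher by 0.90 with siCIP2A#1 than with siCIP2A#3 (SE 0.14, edgeR adjusted p = 0.0430), at 217 against 116 CPM. Each side is 1 library, and the spread comes from the controls alone, so the value compares those libraries and not the siRNAs. Whether this comes from the siRNA sequence or from the single library was not tested.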

How the results depend on the processing

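Of 317 alternative values for 33 results of named members, 305 kept their direction and side of the threshold, 1 lost the call (SLC2A3 with siCIP2A#1 under RLE factors, edgeR adjusted p = 0.05002), 11 gained one and 0 changed sign. The gains were EPAS1 and PFKFB3 with siCIP2A#1, ANKRD37, BNIP3, ENO2 and LDHA with siCIP2A#2, and VEGFA with siCIP2A#3, each of them without the mock. BNIP3 and LDHA also gained a call under other settings. The results in this tally were chosen by p. They are group results at an unadjusted p under 0.05, and single-siRNA results that were called or met a stricter unadjusted p. Calls that other members gained with single siRNAs without the mock fall outside the tally. Counts of genes called moved more. Against all controls, 0 became 3 with DESeq2, 3 with no filter and 1 with the replicate block, and 0 to 1 with a library left out. Against non-targeting siRNA, 0 became 3 with DESeq2, 2 with no filter and 9 with the replicate block, and 0 to 1 with a library left out. For non-targeting siRNA against mock it became 3 with DESeq2 and 5 with no filter. For siCIP2A#1, siCIP2A#2 and siCIP2A#3 the counts were 74, 54 and 29 with DESeq2, and 169, 109 and 44 with no filter, where LDHA was called with siCIP2A#2. With a library left out they ranged from 16 to 1896, from 10 to 3088 and from 1 to 1330. The members' median for non-targeting siRNA against mock ranged from -0.32 to -0.21 with a library left out. The cause of these shifts was not tested. The deviations of same-numbered libraries had correlations of -0.117, -0.128 and 0.0076. Each library had its own siRNA or none, so these values cannot show whether replicate numbers pair the libraries. No member was called under the block. Members near the floor, CA9, EGLN3, ANKRD37, NDRG1 and ALDOC, are limited by depth.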
